A study of Sus scrofa with 6 samples.

Results

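Long noncoding RNAs (lncRNAs) assembled from the longissimus dorsi (LD) muscle of Laiwu pigs were examined where they lie on unplaced scaffolds of the pig genome assembly Sscrofa11.1. A lncRNA was a member when its assembled transcript (TCONS identifier) had been given a lncRNA name by the authors and its position was not on chromosomes 1 to 18, X, Y or MT. Of 7386 lncRNAs, 293 (3.97%) met this rule, and they lay on 71 scaffolds. The S-H group held 3 pigs with high intramuscular fat (IMF) content (LW63, LW70 and LW119), and the S-L group held 3 pigs with low IMF content (LW82, LW88 and LW90). All 6 pigs were castrated males without any treatment named in the labels, chosen by the authors from the extremes of a larger herd sample, and each pig gave 1 strand-specific library depleted of ribosomal RNA. Their age was not given in the sources used here.

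A lncRNA is a long transcript without a recognised protein-coding frame, and many are spliced like messenger RNAs but are present at lower levels and in fewer tissues. Some lie between genes (intergenic), some overlap a gene on the same strand (sense-overlapping) and some are read from the opposite strand of a gene (antisense). An unplaced scaffold is a stretch of assembled sequence that has not been assigned a chromosome position, and such stretches often hold repeats, members of gene families or copies of sequence that the assembly could not separate.

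The libraries were first compared as a whole. The summed FPKM (fragments per kilobase of transcript, scaled to the mapped fragments of the library) ranged from 638536 in LW119 to 846661 in LW82, and between 44552 and 48568 transcripts were above 0 in each pig. Of 10 skeletal muscle fibre markers, 7 were found under their symbols (MB, MYH1 and MYH2 were not), and their summed level was 8569 to 12939 FPKM in S-H and 9925 to 15624 FPKM in S-L. All 8 adipocyte markers were found, and their summed level was 447 to 1294 FPKM in S-H against 255 to 376 FPKM in S-L, and for 7 of the 8 the S-H pigs all exceeded the S-L pigs. Summed endothelial, macrophage, T and B cell, erythrocyte and fibro-adipogenic progenitor markers overlapped between the groups. Without read counts, which were not used here, the depth of a value is unknown.

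The scaffold lncRNAs differed from the other lncRNAs in their position relative to genes. Intergenic lncRNAs made up 219 of the 293 members (74.7%), against 25.6% of the 7093 lncRNAs on placed chromosomes. Sense-overlapping lncRNAs made up 15% of the members and 51.6% of the placed lncRNAs, and antisense lncRNAs made up 10.2% and 22.8%. The median distance from start to end was 6451 bases on scaffolds (310 to 229765 bases) and 14528 bases on placed chromosomes. Transcripts of 1 locus share sequence, so these shares are descriptions.

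Overlapping members were grouped into 132 loci, of which 88 held 1 transcript. At the other end, 5 loci held at least 15 transcripts each and accounted for 88 of the 293 members. The largest, with 20 transcripts, covered AEMK02000407.1:1-22998, and 9 of its transcripts started at the first base of the scaffold, which no lncRNA on a placed chromosome did. The strand is not in the deposited table, so a locus may hold transcripts of both strands. By scaffold, AEMK02000644.1 held the most lncRNAs (24), followed by AEMK02000407.1 (22), AEMK02000682.1 (20), AEMK02000452.1 (19), AEMK02000549.1 (18), AEMK02000654.1 (17) and AEMK02000569.1 (16). The other end of this range was 32 scaffolds with 1 lncRNA.

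Scaffolds also differed in whether a known (Ensembl) gene lay on them. No known gene was listed on 24 scaffolds, which held 109 members in 33 loci. All 109 were intergenic, which follows from the naming, because sense-overlapping and antisense names carry a gene. The other 47 scaffolds held 184 members in 99 loci, of which 110 were intergenic, 44 sense-overlapping and 30 antisense. The intergenic share of all members given above is therefore partly set by the scaffolds without a known gene. Dividing the scaffolds in this way used the positions of genes and no lncRNA value, but it was chosen after the values had been seen.

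Most scaffold lncRNAs were present at low levels. Of the 293 members, 265 were above 0 in at least 1 pig, 74 were above 0 in all 6 pigs and 28 were listed at 0 in all 6. The median of the mean levels was 0.179 FPKM, next to 0.183 FPKM on placed chromosomes. Among intergenic lncRNAs alone it was 0.168 FPKM on scaffolds and 0.113 FPKM on placed chromosomes. A value in all 6 pigs was found for 16.4% of intergenic members against 24.8% of placed intergenic lncRNAs, and for 50% of antisense members against 37.2% of placed antisense lncRNAs. For sense-overlapping lncRNAs these shares were 52.3% and 53.2%. A value in a single pig was found for 42 members, 15 of them in LW90 and 4 to 8 in each other pig.

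The share of lncRNAs above 0 was compared within each pig. It was lower on scaffolds than on placed chromosomes in 5 of 6 pigs, by a mean of 9.12 percentage points (mean difference -9.12 ± 10.7, SD, n = 6), which did not exceed the spread between pigs (exact two-sided sign-flip permutation test, p = 0.09375, where 0.03125 is the smallest possible). For LW63 and LW119 the difference was -20.2 and -24.3 points, and for the other 4 pigs it lay between -7.77 and 1.35. Among intergenic lncRNAs the mean difference was 0.976 points (SD 13.5, n = 6, exact p = 0.8438).

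The first comparison asked whether the scaffold lncRNAs differed in level between high and low IMF pigs. Summed over all 293 members, the level was 103.5 FPKM in LW63, 108.2 in LW70 and 92.1 in LW119. It was 127.0 FPKM in LW82, 134.8 in LW88 and 147.5 in LW90, so that every S-H pig lay below every S-L pig. The group means were 101.2 ± 8.26 and 136.4 ± 10.3 FPKM (SD, n = 3 each), with a log2 difference of -0.43 (exact permutation test, two-sided, p = 0.10, which is the lowest value possible with 3 pigs in each group). The number of members above 0 overlapped between the groups, with 150, 192 and 144 in S-H and 183, 182 and 200 in S-L (exact p = 0.30).

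A larger difference was found on the scaffolds without a known gene. There the summed level was 8.72 FPKM in LW63, 24.7 in LW70 and 11.0 in LW119, against 59.3 FPKM in LW82, 55.3 in LW88 and 61.9 in LW90. LW70 was the highest S-H pig and still lay below the lowest S-L pig by more than the range of the S-L group. The S-L geometric mean was 4.41 times that of S-H (log2 difference -2.14, exact permutation test, p = 0.10). On the scaffolds with a known gene the sums were 94.8, 83.4 and 81.1 FPKM in S-H and 67.7, 79.5 and 85.6 FPKM in S-L, and the groups overlapped (means 86.4 ± 7.31 and 77.6 ± 9.11, SD, n = 3 each, exact p = 0.40).

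The ratio of these sums within a pig does not depend on scaling between libraries. It was 0.0920, 0.296 and 0.136 in the S-H pigs and 0.877, 0.695 and 0.723 in the S-L pigs, a log2 difference of -2.30 between the groups (exact permutation test, p = 0.10). Intergenic lncRNAs on placed chromosomes had summed levels of 480 ± 88.8 FPKM in S-H and 499 ± 65.0 FPKM in S-L (SD, n = 3 each, exact p = 0.80). Relative to them, the sum on scaffolds without a known gene also separated the groups (log2 difference -2.08, exact p = 0.10). Other assembled transcripts on those scaffolds, which had no lncRNA name, summed to 3.73, 5.39 and 6.69 FPKM in S-H and 9.09, 21.3 and 18.7 FPKM in S-L (exact p = 0.10), again without overlap between the groups. Whether these transcripts share positions and reads with the members was not examined, so their sum is not an independent observation.

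The summed adipocyte markers moved in the opposite direction, with the sum of every S-H pig above that of every S-L pig. Their part in these differences was not tested. The adipocyte sum was 1294 FPKM in LW63, 724 in LW70 and 447 in LW119, and 376 FPKM in LW82, 291 in LW88 and 255 in LW90. In these bulk samples, fewer cells of a type and less RNA per cell cannot be told apart.

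**Figure D1:**
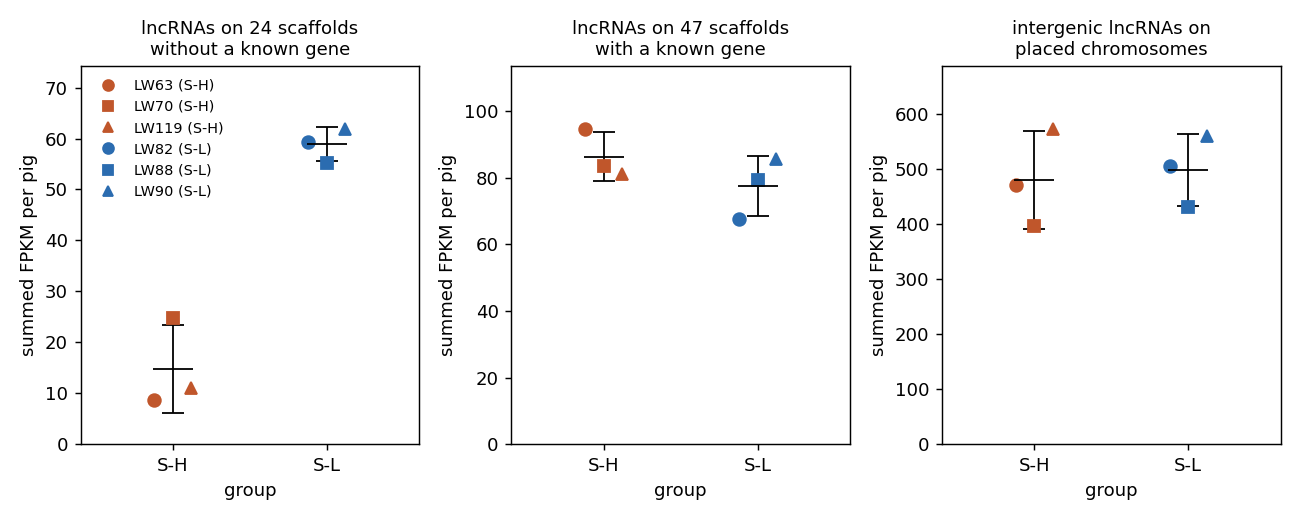
Summed FPKM per pig (y axes, from 0) for lncRNAs on scaffolds without a known gene, on scaffolds with a known gene and, as intergenic lncRNAs, on placed chromosomes, by group (x axes); points are pigs, horizontal bars are group means and vertical bars are SD over 3 pigs. In the left panel the S-H pigs lie at 8.72 to 24.7 FPKM and the S-L pigs at 55.3 to 61.9 FPKM, while the groups overlap in the other panels.

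Single scaffolds were then described. Of the 24 scaffolds without a known gene, 6 had every S-H pig below every S-L pig, 1 had the reverse and 2 were at 0 in all pigs. Of the 47 with a known gene, 1 had every S-H pig below and 4 had every S-H pig above, and 5 were at 0 in all pigs. As a rough reference, every S-H pig was below for 4.14% and above for 6.51% of the 3596 lncRNA loci tested further on. Those are single loci and not sums over a scaffold, so the shares are not directly comparable. Among scaffolds with at least 3 lncRNAs, all S-H pigs were above for 0 of 10 without a known gene and for 2 of 18 with one. All S-H pigs were below for 5 of those 10 and for 1 of those 18. That 1 was AEMK02000644.1, whose single known gene, ENSSSCG00000046374, was listed at 0 in every pig.

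AEMK02000407.1 had the highest summed level among scaffolds without a known gene. Its lncRNAs summed to 1.03, 7.78 and 1.65 FPKM in LW63, LW70 and LW119, and to 20.4, 21.9 and 15.8 FPKM in LW82, LW88 and LW90. AEMK02000644.1 had 1.48, 4.07 and 0.411 FPKM in the S-H pigs and 7.68, 10.8 and 18.1 FPKM in the S-L pigs. The same arrangement was seen on both, with LW70 highest in S-H and all S-L pigs above it. On AEMK02000636.1, which held 3 lncRNAs, the values were 2.11, 2.69 and 0.426 FPKM in S-H and 10.9, 4.62 and 9.59 FPKM in S-L. Other scaffolds did not follow it: AEMK02000542.1 was carried by LW82 (8.97 FPKM) and LW70 (1.59 FPKM), with LW63 and LW88 at 0.

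Levels on scaffolds that hold many known genes differed from one scaffold to the next. AEMK02000452.1, with 107 known genes and 19 lncRNAs, summed to 9.47 to 12.8 FPKM in S-H and 9.29 to 11.9 FPKM in S-L. AEMK02000682.1, with 100 known genes and 20 lncRNAs, summed to 27.9 ± 1.91 FPKM in S-H and 22.5 ± 2.26 FPKM in S-L (SD, n = 3 each), with every S-H value above the S-L values. AEMK02000361.1, with 27 known genes, had 1.11, 1.33 and 2.89 FPKM in S-H and 0.323, 1.52 and 2.36 FPKM in S-L, so that the pigs varied within both groups. AEMK02000328.1, with 22 known genes, had 2.42, 1.67 and 2.71 FPKM in S-H and 1.01, 0.631 and 1.17 FPKM in S-L, again with all S-H values above. AEMK02000698.1, with 25 known genes, had 0.569, 0.146 and 0.328 FPKM in S-H and 0.379, 0.218 and 0.186 FPKM in S-L, with overlap. AEMK02000261.1, with 40 known genes, held 1 lncRNA, which was listed at 0 in all pigs.

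**Figure D2:**
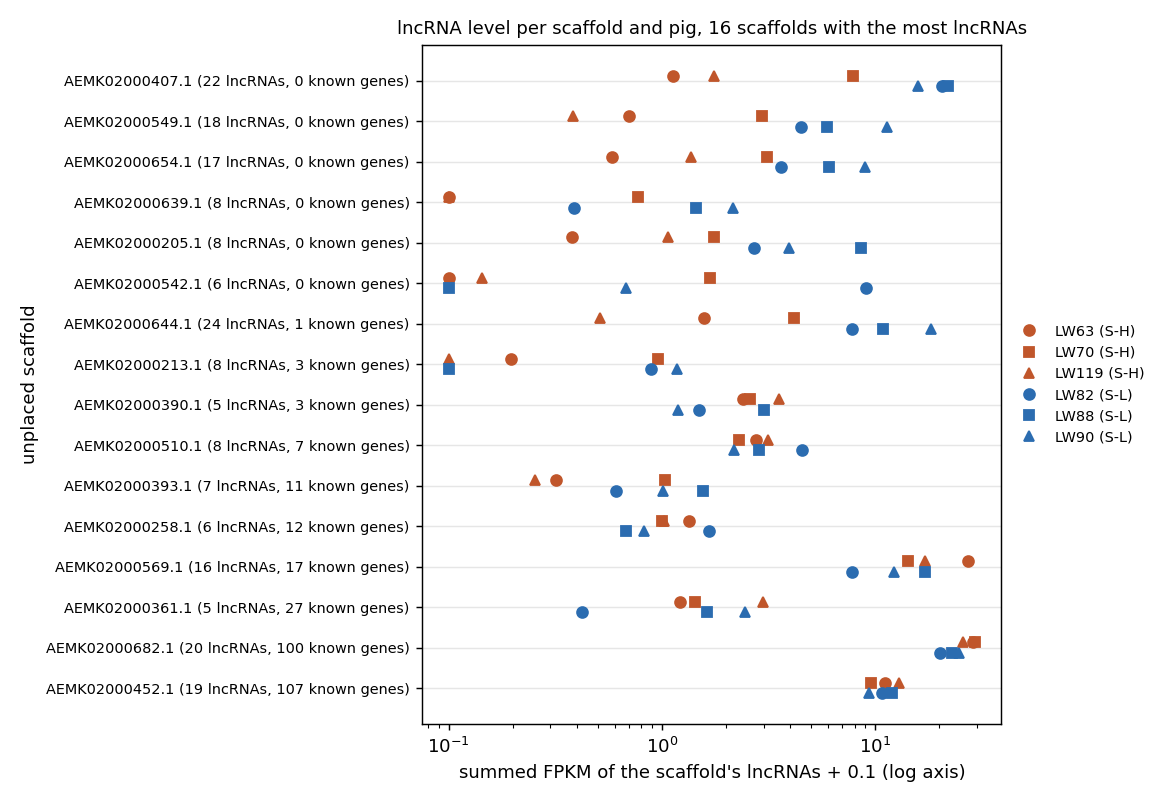
Summed FPKM of each scaffold's lncRNAs plus 0.1 (x axis, log scale) in each pig for the 16 scaffolds with the most lncRNAs (y axis, ordered by their number of known genes); points are pigs. Without overlap, S-L points lie to the right of S-H points on AEMK02000407.1, AEMK02000549.1, AEMK02000654.1, AEMK02000205.1 and AEMK02000644.1, while on AEMK02000452.1 the points of both groups lie together.

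Each lncRNA was next compared between S-H and S-L with limma on log2(FPKM + 0.1), fitted over all 40336 transcripts whose mean was 0.1 FPKM or more. To pass, a feature needed p below 0.01 before adjustment and a log2 fold change of 1 or more in either direction, and the Benjamini-Hochberg adjusted p is given beside it. Of the 293 members 198 were tested, and 95 fell under the minimum. The member just inside the minimum was TCONS_00287579 (mean 0.102 FPKM) and the member just below it was TCONS_00292702 (0.0926 FPKM).

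Of the 198 members tested 15 passed (7.58%), where 1.25% of all tested transcripts passed. Of these 15, 14 were lower in S-H (all transcripts, 0.496%) and 1 was higher (all transcripts, 0.751%). After adjustment 0 members were below 0.05 (lowest adjusted p, 0.399), while 44 members had an unadjusted p below 0.05 in the limma fit (all transcripts, 5.57%), 40 of them lower in S-H (all transcripts, 1.97%). The groups did not overlap for 52 members (26.3%, where 11.3% of all tested transcripts did not), and for 43 of these every S-H pig was below (all transcripts, 3.31%). Members overlap one another and share reads, so these counts are not of independent units. The median log2 fold change was -0.52 over the members, 0.14 over all tested transcripts and 0.04 over placed lncRNAs.

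Of the 15 that passed, 11 lay on scaffolds without a known gene, where 78 members were tested, and all 11 were lower in S-H. The median log2 fold change of these 78 was -1.41, with 73 below 0. On scaffolds with a known gene 4 of 120 passed, with a median of -0.01 and 60 members on each side of 0. Placed intergenic lncRNAs passed in 19 of 992 cases (1.92%). The count of passing members rested on single pigs: it was 7 without LW63, 27 without LW70, 5 without LW119, 9 without LW88 and 2 without LW90, and those 2 were both higher in S-H. Of the 15, between 1 and 13 still passed when a pig was left out, while the direction was kept in every leave-out in which they were tested.

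Several members of the locus at AEMK02000407.1:1-22998 were among those that passed. LINC1786 (TCONS_00289048, AEMK02000407.1:18956-21407) had 0, 1.14 and 0.0629 FPKM in S-H and 4.67, 4.04 and 1.81 FPKM in S-L, a log2 fold change of -3.62 ± 0.97 (SE, limma adjusted p = 0.755). LINC1796, which overlaps it (AEMK02000407.1:18964-21491), had 0, 0.714 and 0.472 FPKM in S-H and 3.19, 3.11 and 2.18 FPKM in S-L. Both were 0 in LW63, highest within S-H in LW70, and higher in every S-L pig. LINC1787 (AEMK02000407.1:1-9543) was the most even within S-L, with 1.06, 1.02 and 1.07 FPKM against 0.123, 0.417 and 0.102 FPKM in S-H (log2 fold change -2.01 ± 0.49, SE, limma adjusted p = 0.647). LINC1792, LINC1785 and LINC1783 passed at lower levels, with at most 1.14 FPKM in any pig, and each was 0 in LW63. A further transcript of this locus, LINC1790, was listed at 0 in all S-H pigs and had 1.51, 0.179 and 0.115 FPKM in S-L, and did not pass.

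On AEMK02000644.1, 3 transcripts that overlap one another passed. LINC1904 (TCONS_00292696, AEMK02000644.1:64276-66266) had 0, 0.670 and 0 FPKM in S-H and 2.37, 2.21 and 4.11 FPKM in S-L, which gave the largest negative log2 fold change among the 15 (-3.87 ± 0.86, SE, limma adjusted p = 0.527). LINC1892, which starts just before it, had 0.267, 0.311 and 0 FPKM in S-H and 1.31, 1.57 and 2.21 FPKM in S-L. LINC1891 reached 1.38 FPKM in LW90 and was 0 in LW63 and LW119. In all 3, LW119 was at 0 and each S-L pig was above each S-H pig.

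On AEMK02000549.1, LINC1834 (AEMK02000549.1:30152-33011) had 0, 0.208 and 0 FPKM in S-H and 1.17, 0.664 and 1.31 FPKM in S-L (log2 fold change -2.93 ± 0.61, SE, limma adjusted p = 0.442). LINC1845, which covers almost the same bases, had 0, 0.332 and 0 FPKM in S-H and 0.818, 0.810 and 1.46 FPKM in S-L. These 2 transcripts were found in LW70 alone among S-H pigs. LINC1729 (AEMK02000205.1:16003-19451) had 0.200, 0.873 and 0.286 FPKM in S-H and 1.85, 5.77 and 2.63 FPKM in S-L, with a log2 fold change of -2.71 ± 0.62 (SE, limma adjusted p = 0.565). LINC1925 on AEMK02000654.1 and LINC1877 on AEMK02000639.1 also passed lower in S-H, at no more than 0.684 FPKM in any pig, and LINC1877 was listed at 0 in all S-H pigs.

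LINC1769 was the only one of the 15 that was higher in S-H. It lies at AEMK02000361.1:1598185-1615753, on a scaffold with 27 known genes, and had 0.832, 0.391 and 0.357 FPKM in S-H while it was listed at 0 in all S-L pigs (limma adjusted p = 0.399). It was also the only one of the 15 that passed whichever pig was left out of the transcript fit, although as a locus it was lost without LW63.

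**Figure D3:**
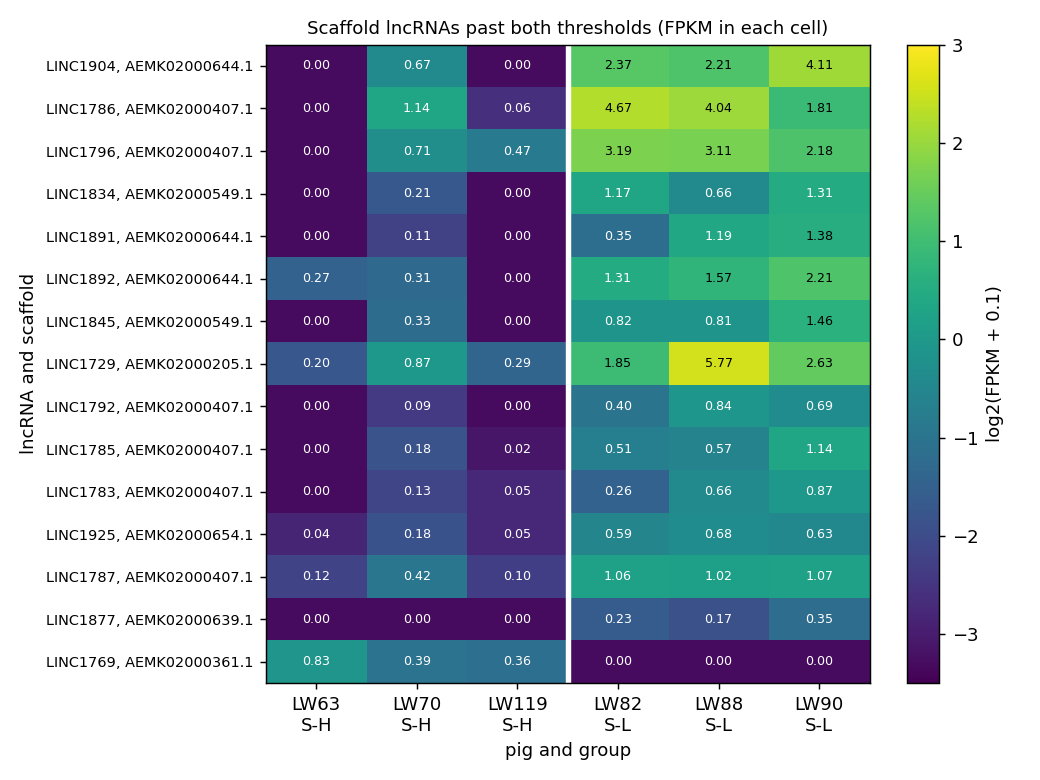
FPKM of the 15 scaffold lncRNAs that passed (rows, named with their scaffold) in each pig (columns, S-H to the left of the white line); colour is log2(FPKM + 0.1). In 14 rows the S-L cells are brighter, with LW70 the brightest S-H cell or equal to the others at 0, and in the last row, LINC1769, the 3 S-L cells are at 0.

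Because overlapping transcripts share reads, the summed FPKM of each locus was tested in the same way over all 3596 lncRNA loci with a mean of at least 0.1 FPKM. Of 86 scaffold loci tested 11 passed (12.8%), where 1.81% of all tested loci passed. Of these 9 were lower in S-H (all loci, 1.03%) and 2 were higher (all loci, 0.779%). No scaffold locus had an adjusted p below 0.05 (lowest 0.282), and 19 were at an unadjusted limma p below 0.05 (all loci, 6.31%). The groups did not overlap for 18 loci (20.9%, where 10.7% of all tested loci did not), of which 11 had every S-H pig below (all loci, 4.14%) and 7 had every S-H pig above (all loci, 6.51%). The median log2 fold change was 0.01 over the scaffold loci and 0.06 over all loci.

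On scaffolds without a known gene 6 of 22 loci passed, all lower in S-H, and the median over the 22 was -1.40 (log2 fold change). On scaffolds with a known gene 5 of 64 passed, 2 higher and 3 lower, and the 3 lower loci were the 3 loci of AEMK02000644.1. Among intergenic loci on placed chromosomes 16 of 710 passed (2.25%). Without LW63 the count over all scaffolds was 6 and without LW90 it was 7, and no other pig moved it by more than 1.5 times.

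The locus at AEMK02000407.1:1-22998 had 0.664, 7.78 and 1.65 FPKM in S-H and 19.4, 21.9 and 15.4 FPKM in S-L (log2 fold change -3.10 ± 0.67, SE, limma adjusted p = 0.282). All 17 of its tested transcripts had a negative log2 fold change, from -3.62 to -1.27. The number of its 20 transcripts above 0 was 7, 17 and 12 in S-H and 18, 19 and 19 in S-L. In this and the following loci, transcripts share reads and form the locus sum, so a common sign among them adds no support. The locus at AEMK02000549.1:18681-45598 (18 transcripts) had 0.603, 2.83 and 0.281 FPKM in S-H and 4.41, 5.85 and 11.2 FPKM in S-L (-2.86 ± 0.67, SE, limma adjusted p = 0.282), and all 14 of its tested transcripts were negative. At AEMK02000644.1:27219-76144 (17 transcripts) the values were 1.10, 3.67 and 0.391 FPKM in S-H and 6.77, 8.68 and 14.5 FPKM in S-L (-2.88 ± 0.64, SE, limma adjusted p = 0.282). These 3 loci passed whichever pig was left out, and in each the S-H pigs were in the order LW70 highest, then LW63 or LW119.

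The locus at AEMK02000654.1:64-12507 (17 transcripts) had 0.485, 3.01 and 1.26 FPKM in S-H and 3.50, 5.99 and 8.91 FPKM in S-L, with LW70 close to LW82 (log2 fold change -2.11 ± 0.59, SE, limma adjusted p = 0.441). It no longer passed without LW63, LW119 or LW90. All 15 of its tested transcripts were negative, but they overlap and form the locus sum, so this adds no support. At AEMK02000205.1:16003-20199 the sums were 0.281, 1.48 and 0.973 FPKM in S-H and 2.59, 8.49 and 3.85 FPKM in S-L (-2.38 ± 0.60, SE, limma adjusted p = 0.306), and the call was lost without LW63. The locus at AEMK02000636.1:784-60975 passed with a log2 fold change of -2.42 ± 0.61 (SE) and was lost without LW82. Its most abundant transcript, LINC1871, had 1.19, 1.59 and 0.165 FPKM in S-H and 6.69, 2.13 and 4.72 FPKM in S-L and did not pass alone. The remaining lower locus without a known gene, at AEMK02000454.1:6887-11219, overlapped between the groups (0, 0.422 and 0 FPKM against 1.12, 0.278 and 1.80 FPKM).

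The 2 loci that were higher in S-H held 1 transcript each. One was LINC1769, described above. The other was MCM3AP-OT1 (AEMK02000328.1:508817-515950), which overlaps MCM3AP, the gene of an mRNA export factor, on the same strand, and had 1.76, 1.28 and 1.91 FPKM in S-H and 0.312, 0.113 and 1.09 FPKM in S-L (log2 fold change 1.87 ± 0.60, SE, limma adjusted p = 0.543). It passed in 1 of the 6 leave-outs and did not pass in the transcript fit.

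Of the 5 loci with at least 15 transcripts, the locus at AEMK02000569.1:775369-784146 (16 transcripts) was the exception. It lies before SLC25A6 (AEMK02000569.1:792563-820520), which encodes a mitochondrial ADP/ATP carrier, and it summed to 27.2, 14.2 and 17.1 FPKM in S-H and 7.72, 17.0 and 12.2 FPKM in S-L. The groups overlapped (log2 fold change 0.68 ± 0.39, SE, limma adjusted p = 0.886), and 12 of its 16 transcripts had a positive and 4 a negative log2 fold change. Its transcripts differed from pig to pig. LINC1859 was highest in LW88 (7.48 FPKM) and LW63 (4.50 FPKM) and lay between 0.669 and 1.50 FPKM in the other 4, so that its fold change was near 0 and was negative under another scaling (0.04, against -0.10 with median-ratio size factors and -0.05 with quantile normalization). LINC1858 had 6.67 FPKM in LW63 and 3.25 FPKM in LW88 and was 0 in the other 4, while LINC1850 was highest in LW119 (4.20 FPKM) and LINC1856 in LW63 (3.24 FPKM). SLC25A6 itself had 233, 181 and 181 FPKM in S-H and 111, 175 and 92.1 FPKM in S-L, without overlap, and did not pass.

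**Figure D4:**
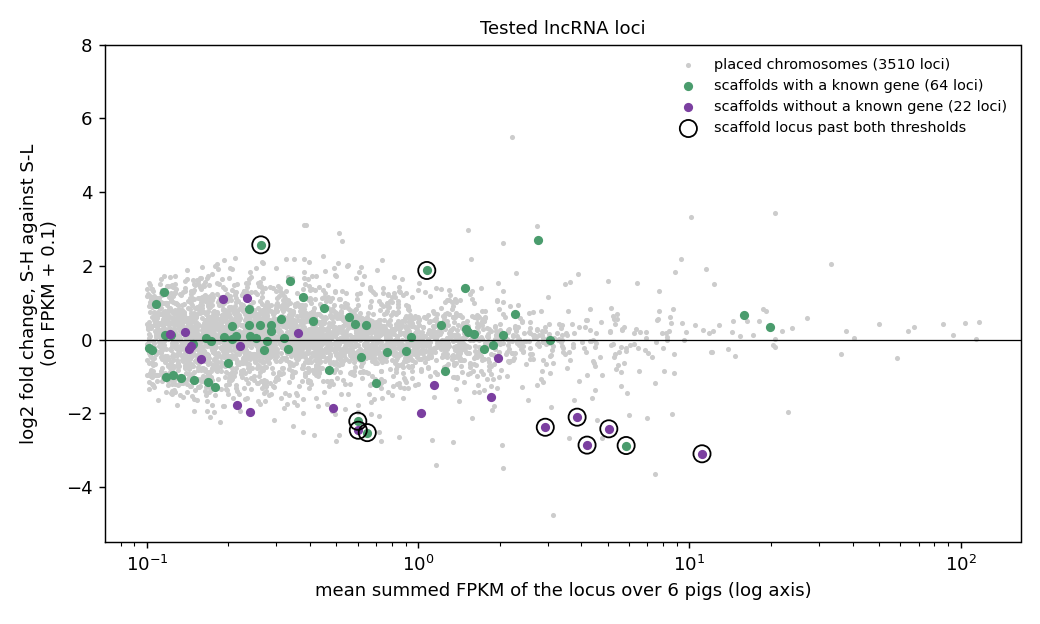
Log2 fold change of S-H against S-L on FPKM + 0.1 (y axis) by mean summed FPKM over 6 pigs (x axis, log scale) for all 3596 tested lncRNA loci; grey points are placed loci, green and purple points are loci on scaffolds with and without a known gene, and circles mark the 11 scaffold loci that passed. The circled purple points lie between -3.10 and -2.11, and the circled points above 0 are LINC1769 and MCM3AP-OT1.

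The scaffold lncRNA of highest level was an antisense transcript on a scaffold with many known genes. ENSSSCG00000040396-AS4 (TCONS_00293125, AEMK02000682.1:975760-977214) had 18.6, 19.1 and 19.2 FPKM in S-H and 13.0, 14.9 and 16.8 FPKM in S-L. It is antisense to SSNA1, which encodes a microtubule-associated protein. Although the groups did not overlap, the log2 fold change was 0.35 ± 0.21 (SE, limma adjusted p = 0.859). SSNA1 had 28.0, 34.1 and 31.8 FPKM in S-H and 22.1, 34.3 and 32.9 FPKM in S-L, with overlap. ENSSSCG00000002547-AS1, antisense to the kinesin light chain gene KLC1, had 1.94, 2.11 and 2.24 FPKM in S-H and 1.98, 2.85 and 1.21 FPKM in S-L, and its log2 fold change of 0.13 was -0.01 with median-ratio size factors. LINC1826 on AEMK02000548.1, a scaffold of intergenic lncRNAs, lay between 1.06 and 2.56 FPKM in all pigs.

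The antisense lncRNA of DEFB1 varied with its gene from pig to pig. DEFB1 encodes beta-defensin 1, a secreted antimicrobial peptide of epithelia, and had 59.0, 32.8 and 22.5 FPKM in S-H and 27.2, 1.95 and 2.76 FPKM in S-L. ENSSSCG00000029990-AS1 (TCONS_00292364, AEMK02000617.1:2755-11125) had 4.39, 3.58 and 3.02 FPKM in S-H and 2.83, 0 and 0.893 FPKM in S-L, so that both were lowest in LW88 and LW90. For the lncRNA the S-H values all exceeded the S-L values, while for DEFB1 LW82 lay above LW119. Neither passed (log2 fold change 2.49 ± 1.15 for the lncRNA, limma adjusted p = 0.848, and 2.70 ± 0.88 for DEFB1, limma adjusted p = 0.666, SE). A second antisense transcript, ENSSSCG00000029990-AS2, was found in LW63 (0.852 FPKM) and LW70 (0.992 FPKM) and was 0 in the other 4 pigs. The libraries kept the strand, but the values do not show how reads of a gene and its antisense transcript were divided.

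**Figure D5:**
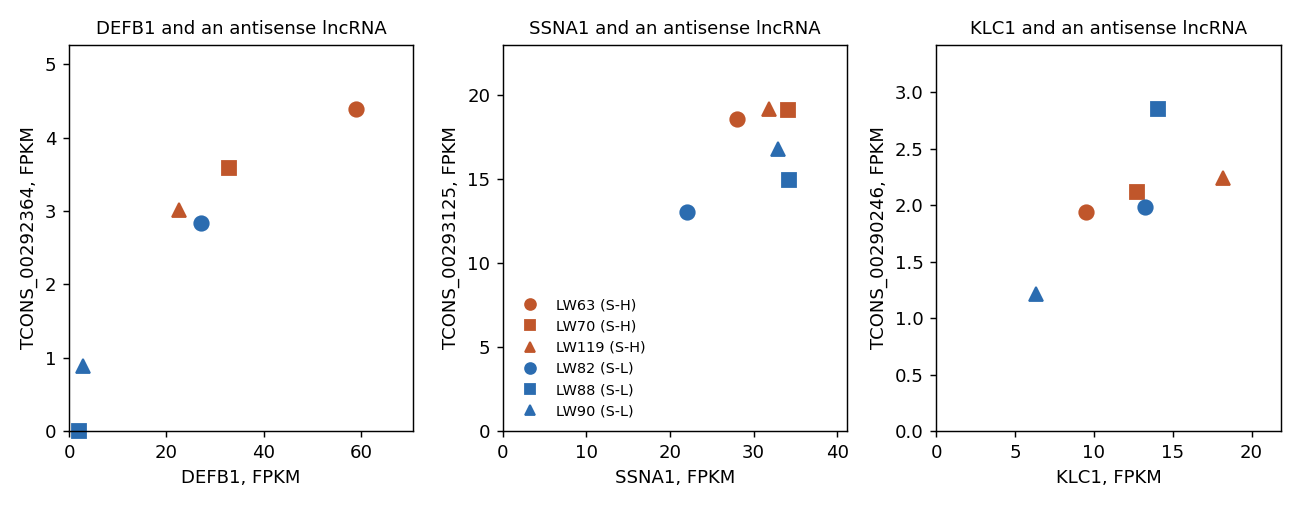
FPKM of an antisense lncRNA (y axes) against FPKM of the gene it is antisense to (x axes) for DEFB1, SSNA1 and KLC1; each point is 1 pig. In the DEFB1 panel LW88 and LW90 lie at the lower left and LW63 at the upper right (59.0 and 4.39 FPKM), while for SSNA1 the lncRNA stays between 13.0 and 19.2 FPKM.

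The genes named in the lncRNA names were all found on the same scaffold. They were 42 genes for 74 members, 33 of them were tested as genes and 0 passed in limma, while 2 had an unadjusted p below 0.05 (all genes, 7.23%), DEFB1 and CES1. CES1, a carboxylesterase that hydrolyses lipid esters and drugs, had 2.83, 0.867 and 0.232 FPKM in S-H and 0.482, 0.0298 and 0.00863 FPKM in S-L (log2 fold change 2.28 ± 0.88, SE, limma adjusted p = 0.666). The sense-overlapping member named after CES1 was itself listed at 0 in all pigs. Among other sense-overlapping members, TFCP2-OT1 ranged from 0.127 to 0.496 FPKM and TNRC6A-OT1 from 0.850 to 1.68 FPKM over all pigs, with overlap between the groups. The intergenic LINC1766 on AEMK02000361.1 varied within both groups, from 0 to 2.14 FPKM in S-H and from 0.283 to 1.21 FPKM in S-L.

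As a set, known genes on the scaffolds did not follow the lncRNAs of the scaffolds without genes. Of the 499 known genes on the 71 scaffolds 178 were tested, and 2 passed (1.12%, where 1.25% of all tested genes passed). Both were lower in S-H (all genes, 0.294%). The median log2 fold change of the 178 was 0.25 (0.20 over all genes). With median-ratio size factors these medians were 0.05 and 0.01. The count was 7 without LW70, 4 without LW119, 5 without LW82 and 1 without LW90. Both genes that passed carry no symbol and lie on AEMK02000452.1, and their positions overlap. ENSSSCG00000040849 (AEMK02000452.1:3753148-3761820) had 0.985, 1.37 and 0.764 FPKM in S-H and 3.43, 3.38 and 7.71 FPKM in S-L (log2 fold change -2.04 ± 0.39, SE, limma adjusted p = 0.366). ENSSSCG00000037775 (AEMK02000452.1:3583001-3841357) had 30.4, 27.1 and 23.4 FPKM in S-H and 45.3, 62.5 and 72.6 FPKM in S-L (-1.14 ± 0.25, SE, limma adjusted p = 0.587). The known genes of highest mean on these scaffolds were a signal recognition particle RNA (Metazoa_SRP), HSP90AA1, SLC25A6, TUBB4B and UBAC1, of which none passed in limma, and of these SLC25A6 alone had an unadjusted p below 0.05.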

How the data were processed

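RNA of the LD muscle of 6 Laiwu pigs (3 S-H, 3 S-L) was sequenced by the authors, with 1 library per pig. As the methods describe, reads were aligned to Sscrofa11.1 with HISAT2 and transcripts were assembled and quantified with StringTie. The values deposited by the authors are FPKM per transcript, except that 21104 Ensembl transcripts without a symbol hold TPM, which were placed on the FPKM scale by 1 factor per pig computed from the table. No member is among them. Members and lists were chosen with earlier results of these data known.

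Overlapping members (at least 1 base) on a scaffold formed a locus, whose level was the summed FPKM. Transcripts, loci and genes with a mean of at least 0.1 FPKM entered limma 3.58.1 (R 4.3.3, variance trend) as log2(FPKM + 0.1), over all features of the table, and fold changes of low features are understated on this scale. Thresholds were those of the study (p below 0.01, absolute log2 fold change of at least 1), whose own test used read counts, not used here. For sums per pig, exact permutation tests (two-sided) were used. Each fit was tested on simulated data. Python 3.11.15, numpy 2.4.6 and pandas 2.3.3 were used.

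Named lncRNAs were those that passed (at most 12 by p), the 10 of highest mean, those at 0 in 1 group only, the top transcripts of the 5 largest loci and of the 5 scaffolds with most loci. LINC1783, LINC1858, MCM3AP-OT1 and ENSSSCG00000029990-AS2 were added after their values were seen, as were the scaffolds described singly. Strand and genome sequence were not used here, and similarity between scaffolds was not examined. Other settings were another pseudocount, minimum, scaling, variance model, locus rule or division of scaffolds, and each pig left out.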

Additional observations from a re-analysis of the deposited data

How the results depend on the processing

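Counting error is unknown without read counts, and precision rests on 3 pigs per group, where 0.10 is the smallest p of an exact permutation test. No paired analysis was possible because the pigs are different animals and the labels give no replicate numbers. The sums kept their direction in every setting run. The sum on scaffolds without a known gene gave log2 differences of -2.58 to -1.83 when 1 pig was left out. It gave -2.29 with median-ratio size factors, -1.96 for scaffolds without an expressed known gene and -1.87 without AEMK02000407.1. The exact permutation p of this sum was 0.1 without LW63, LW70 or LW119 and 0.2 without LW82, LW88 or LW90. The ratio of this sum to that of the other scaffolds gave -2.77 to -1.92 with 1 pig left out. For the ratio the exact permutation p was 0.2 without LW82 or LW90 and 0.1 without any other pig. This sum, the ratio and their alternatives were chosen after seeing the data. The sum of all members gave -0.58 with median-ratio size factors. With 1 pig left out it gave -0.48 to -0.36, the number above 0 gave -41.33 to -17.33, and the share above 0 gave -11.21 to -6.07 percentage points.

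The 15 transcripts that passed became 5 with a pseudocount of 1, 2 with a mean of at least 1 FPKM (27 members tested), 26 in a fit over lncRNAs alone and 2 to 27 with 1 pig left out (7, 27, 5, 9 and 2 without LW63, LW70, LW119, LW88 and LW90). The 11 loci became 7 with a pseudocount of 1, 5 with a mean of at least 1 FPKM (25 tested), 26 of 126 when joined by gene ID, chosen after seeing the data, and 6 to 12 with 1 pig left out. The 2 known genes became 1 to 7 with 1 pig left out. Except where fewer features were tested, the cause was not tested. TCONS_00291717 reversed to -0.06 (pseudocount of 1), -0.10 (median-ratio), -0.05 (quantile), -0.51 (without LW63), -0.16 (without LW82) and -0.69 (without LW90). TCONS_00290246 reversed to -0.01 (median-ratio) and -0.18 (without LW90), TCONS_00291245 to 0.08 (without LW82), and TCONS_00288539 to 0.01 (pseudocount of 1) and 0.84 (without LW63). None of these 4 had passed.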
